A study of Rattus norvegicus with 23 samples.

Results

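Elastic fibres are the stretchable part of the extracellular matrix, and 10 genes for their proteins, assembly factors and crosslinking enzymes were followed in rat brain endothelial cells: Fbln1, Fbln2, Fbln5, Eln, Fbn1, Emilin1, Ltbp1, Ltbp4, Lox and Loxl2. The genes were taken by symbol from a table of 32883 gene identifiers. Each symbol stood on 1 row of it, and all 10 were among the 13834 genes with enough reads to be tested. The cells were primary brain endothelial cells of the rat, lysed from culture inserts on which they had been kept together with pericytes and astrocytes. The 4 treatments were compared by RNA-seq: normoxia (6 libraries), OGD/R (oxygen and glucose deprivation with reoxygenation, a culture model of ischaemic stroke; 6 libraries), OGD/R with DMT (N,N-dimethyltryptamine, a tryptamine that acts on serotonin receptors and the sigma-1 receptor; 5 libraries) and OGD/R with DMT and BD1063 (an antagonist of sigma receptors; 6 libraries). For short, the 2 groups given DMT are named DMT and DMT plus BD1063. Each library is the endothelial lysate of 1 insert, and the sources used here do not say whether inserts came from separate cell isolations. The p-values therefore measure the spread between inserts, which may be technical. Doses, exposure times and any vehicle treatment were not stated there either. No group received DMT or BD1063 under normoxia.

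An elastic fibre has a core of crosslinked elastin, which is secreted as the soluble monomer tropoelastin (Eln), laid on a scaffold of fibrillin microfibrils (Fbn1). Fibulins bridge tropoelastin, microfibrils and cells: mice without Fbln5 have loose skin and disorganised elastic fibres. Latent TGF-beta binding proteins (Ltbp1, Ltbp4) sit on the same microfibrils and hold the growth factor TGF-beta in an inactive store, and copper enzymes of the lysyl oxidase family (Lox, Loxl2) crosslink elastin and collagen. Large vessels carry thick elastic laminae, whereas brain capillaries have a basement membrane with little elastin.

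The promoter windows of Fbln5, Ltbp4 and Ltbp1 are shown because these genes moved under OGD/R in opposite directions and RefSeq holds the windows. RefSeq promoters (GRCr8 assembly, 250 bases before to 50 bases after the gene start, read 5′ to 3′ on the gene's strand) were matched by symbol for 5 of the 10 genes, the others being Fbn1 and Fbln2. The 4 motifs below were searched on both strands: the SMAD core CAGAC, the hypoxia-inducible factor core ACGTG, the AP-1 site TGANTCA and the cAMP response element TGACGTCA. Capitals mark every match, and matches may overlap.
Fbln5 promoter (chr6:126742657-126742956, minus strand): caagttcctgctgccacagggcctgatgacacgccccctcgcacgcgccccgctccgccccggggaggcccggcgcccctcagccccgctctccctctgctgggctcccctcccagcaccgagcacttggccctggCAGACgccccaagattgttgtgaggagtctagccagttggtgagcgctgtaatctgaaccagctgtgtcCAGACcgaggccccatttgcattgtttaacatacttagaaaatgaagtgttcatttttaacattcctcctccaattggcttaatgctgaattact
Ltbp4 promoter (chr1:91759758-91760057, minus strand): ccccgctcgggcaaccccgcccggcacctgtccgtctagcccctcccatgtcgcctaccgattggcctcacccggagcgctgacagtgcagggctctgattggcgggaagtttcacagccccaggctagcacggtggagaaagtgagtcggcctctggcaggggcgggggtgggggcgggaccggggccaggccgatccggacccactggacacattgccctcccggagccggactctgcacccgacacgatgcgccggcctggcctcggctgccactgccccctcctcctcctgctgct
Ltbp1 promoter (chr6:26177252-26177551, minus strand): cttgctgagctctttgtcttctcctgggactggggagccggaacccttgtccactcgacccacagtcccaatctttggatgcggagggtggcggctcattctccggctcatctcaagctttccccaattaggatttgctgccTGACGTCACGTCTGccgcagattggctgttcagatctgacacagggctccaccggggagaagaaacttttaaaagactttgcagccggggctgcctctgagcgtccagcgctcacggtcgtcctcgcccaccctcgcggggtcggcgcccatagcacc

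The Fbln5 window held the SMAD core at bases -114 and -45 from the gene start. The Ltbp1 window held the cAMP response element at -108, and in the same capitals the hypoxia-inducible factor core at -102 and the SMAD core at -99, both on the opposite strand. The Ltbp4 window held no match to the 4 motifs. Of 27457 rat promoter windows of the same length, 50% held the SMAD core, 19.7% the hypoxia-inducible factor core, 7.33% the AP-1 site and 1.91% the cAMP response element. A match is a string of letters and was not tested as a binding site.

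The libraries held between 12162759 and 18565166 gene counts. Levels are given as CPM, gene counts scaled to a common library total with TMM (a correction for differences in library composition), and may be compared between libraries but not between genes, since gene length is not in them. Endothelial markers (Cdh5, Cldn5, Vwf and 8 others found) summed to between 12530 and 13760 CPM in normoxia, 10520 and 11930 in OGD/R, 11550 and 13000 in DMT and 11310 and 12040 in DMT plus BD1063, so that normoxia and OGD/R did not overlap. Of the 11 endothelial markers, 4 were called lower under OGD/R (Egfl7, Tie1, Erg and Esam) and 2 higher (Kdr and Flt1). Among all genes 16.7% were called lower and 18.9% higher. Egfl7 had the largest change in CPM, from a mean of 2925 in normoxia to 1600 in OGD/R. The means of Cdh5 (2095 and 2038), Cldn5 (1934 and 1727) and Vwf (1845 and 1798) did not differ past the threshold. Of the astrocyte markers, Aqp4 was at 0 in 20 libraries and Slc1a2 in 22, and Gja1, which endothelial cells also express, carried nearly all of that list at 104 to 211 CPM. Microglia and leukocyte markers summed to 3.13 to 8.68 CPM. The summed fibroblast and meningeal markers lay between 382 and 909 CPM in normoxia, 119 and 401 in OGD/R, 133 and 382 in DMT and 85.9 and 378 in DMT plus BD1063. Col1a1 and Col3a1 carried most of this sum, while Dpt was at 0 in all 23 libraries and Dcn, Lum and Ogn did not exceed 1.06 CPM. The pericyte and smooth muscle markers, carried mostly by Tagln and Acta2, summed to 193 to 284 CPM in normoxia, 183 to 349 in OGD/R, 142 to 251 in DMT and 126 to 230 in DMT plus BD1063. OGD/R library 5 and DMT library 5 stood apart: each was the lowest of its group for 7 of the 10 genes, ribosomal protein genes took 3.10% and 3.24% of their counts against 1.79% to 2.36% elsewhere, and their fibroblast sums were the lowest of their groups. OGD/R library 3 and DMT library 3 had the lowest shares of the authors' read total in genes, 58.8% and 62.6% against 68.1% to 75.7% elsewhere, and OGD/R 3 had 1.24% of its counts in noncoding genes against at most 0.176% elsewhere. No call among the 10 genes ended or was added when library 3 of either group was left out.

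Under OGD/R, 5 of the 10 elastic fibre genes differed from normoxia: Fbln5, Fbln1, Eln and Ltbp4 fell and Ltbp1 rose. Fbln5 fell by 67.0%, Eln by 60.4%, Fbln1 by 44.5% and Ltbp4 by 30.6%, and Ltbp1 rose by 64.1%. In each of the 5 genes no OGD/R library overlapped the normoxia libraries. The share of all genes without such overlap was not counted, so this separation is a description. Calls are at an adjusted p under 0.05 in edgeR's quasi-likelihood test, adjusted over all 13834 genes by Benjamini-Hochberg. In the same test 18.9% of all genes were called higher and 16.7% lower, against 1 and 4 of the 10 genes here. The median log2 fold change was -0.25 over the 10 genes and 0.01 over all genes. The 10 genes were chosen with earlier results of these data known, so these shares and medians are a description. In these bulk lysates, fewer cells of a type and less RNA per cell cannot be told apart.

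**Figure D1:**
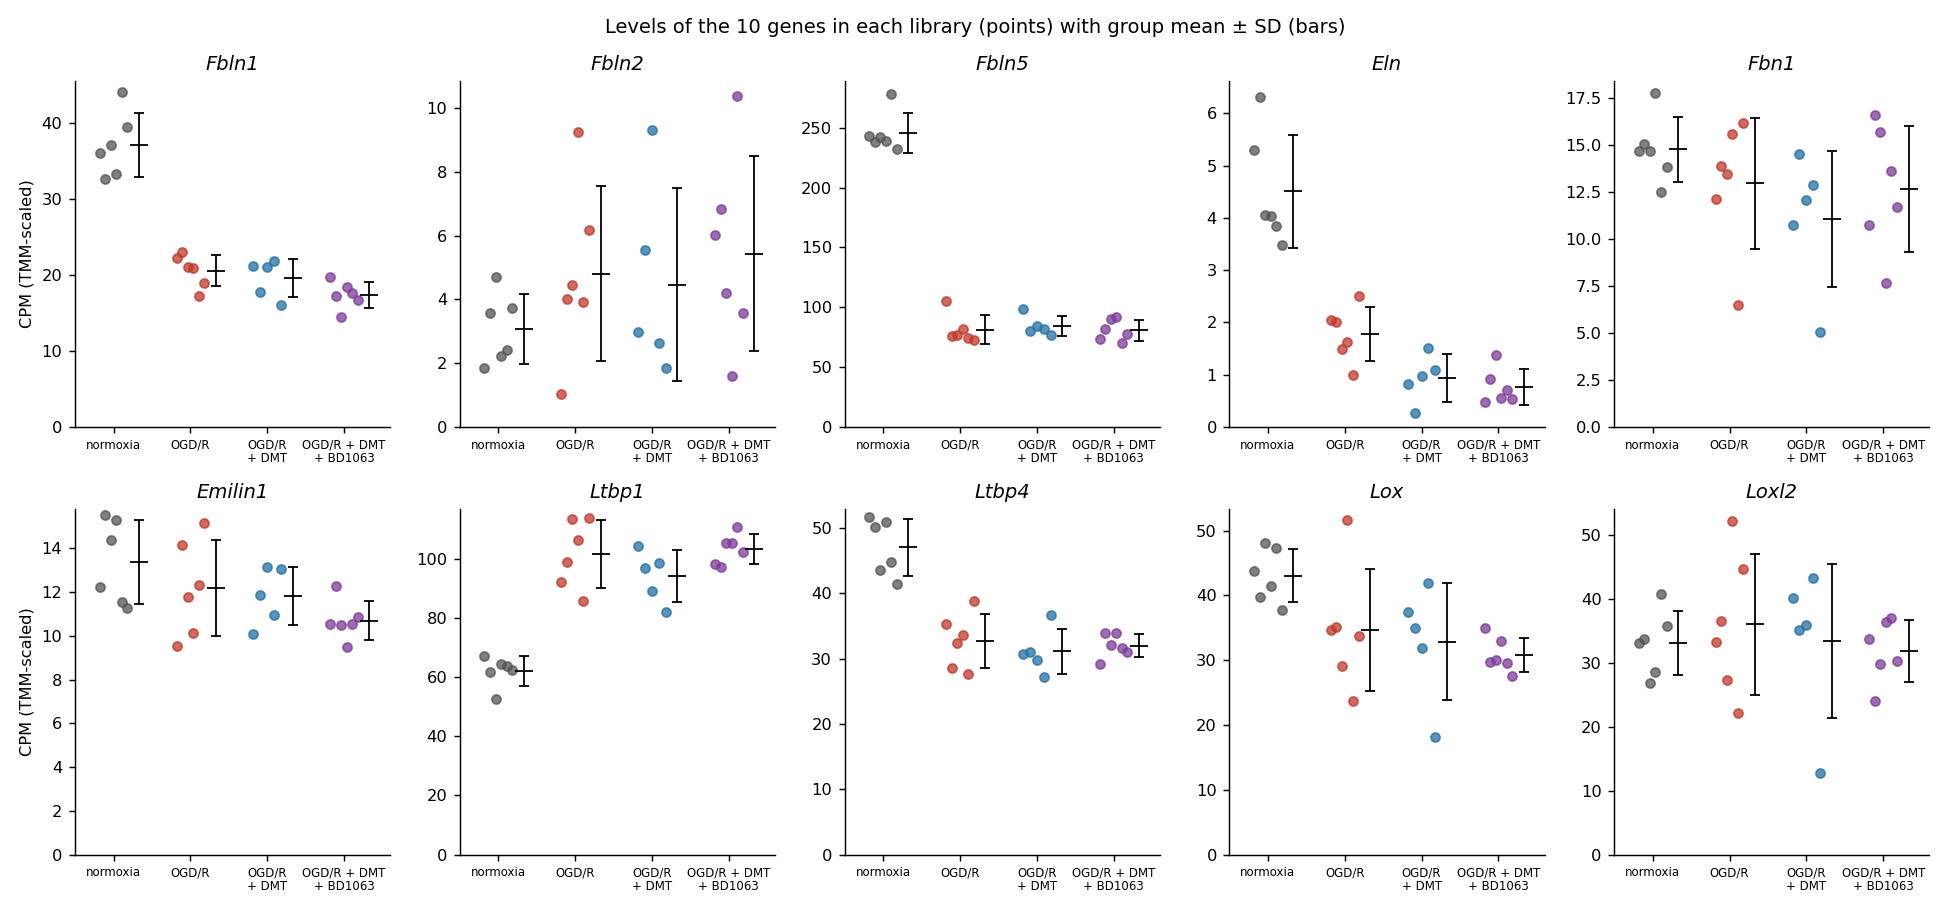
Level of each gene (CPM after TMM scaling, linear axis from 0) in each library, in 4 groups, with the group mean ± SD as black bars. Fbln5, Fbln1, Eln and Ltbp4 lie lower and Ltbp1 higher in the 3 OGD/R groups than in normoxia without overlap, whereas Fbln2, Fbn1 and Loxl2 overlap throughout.

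Fbln5, the fibulin that binds tropoelastin and cell-surface integrins, had the smallest p of the 10 genes. Its level in normoxia ranged from 233 to 279 CPM (median 241), and in OGD/R from 72.4 to 105 (median 76.4). The lowest normoxia library was thus above the highest OGD/R library. The mean fell from 246 ± 16.6 to 81.1 ± 12.2 CPM (SD, n = 6 each), a log2 fold change of -1.60 ± 0.09 (SE; 95% interval -1.78 to -1.42; edgeR adjusted p = 5.78e-12). Its p ranked 4 among all genes tested. In the DMT group Fbln5 was at 98.8, 80.4, 84.6, 81.5 and 76.6 CPM in libraries 1 to 5, and in DMT plus BD1063 it ranged from 69.9 to 91.9 (median 79.9). The 3 OGD/R groups overlapped fully with each other. Each of the other 2 also lay below normoxia, at a log2 fold change of -1.54 ± 0.09 for DMT (edgeR adjusted p = 5e-11) and -1.60 ± 0.09 for DMT plus BD1063 (edgeR adjusted p = 4.58e-12). These 3 comparisons share the normoxia libraries.

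The fibroblast and endothelial marker sums moved in the same direction as Fbln5 between normoxia and OGD/R, at 605 ± 191 against 257 ± 111 CPM and 13360 ± 429 against 11420 ± 503 CPM. Among the endothelial markers Egfl7 had the largest change, from 2925 to 1600 CPM, while Kdr and Flt1 rose. Of 7 listed fibroblast and meningeal markers found, 3 had enough reads to be tested. Of these, 2 (Col1a1 and Col3a1) fell under OGD/R and 0 rose, where 16.7% of all genes were called lower and 18.9% higher. The part of these markers in the Fbln5 difference was not tested.

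Fbln1, a fibulin of basement membranes and elastic fibres, ranged in normoxia from 32.6 to 44.0 CPM (median 36.6) and in OGD/R from 17.3 to 22.98 (median 21.0). The groups did not overlap. The mean fell from 37.1 ± 4.23 to 20.6 ± 2.10 CPM (SD, n = 6 each), a log2 fold change of -0.85 ± 0.09 (SE; edgeR adjusted p = 1.69e-07). The DMT libraries 1 to 5 held 21.2, 17.8, 21.0, 21.8 and 16.1 CPM, and DMT plus BD1063 ranged from 14.5 to 19.7 (median 17.5). Fbln1 was lowest on average in DMT plus BD1063, at 17.4 ± 1.74 CPM. Against normoxia the log2 fold change was -0.92 ± 0.10 in DMT (edgeR adjusted p = 2.58e-07) and -1.10 ± 0.09 in DMT plus BD1063 (edgeR adjusted p = 4.82e-09).

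Fbln2, a fibulin of basement membranes and vessel walls, did not pass the test in any of the 6 comparisons. It ranged from 1.84 to 4.70 CPM in normoxia (median 2.99), from 1.02 to 9.27 in OGD/R (median 4.24) and from 1.59 to 10.4 in DMT plus BD1063 (median 5.12), and was at 2.99, 5.54, 9.32, 2.64 and 1.85 CPM in DMT libraries 1 to 5. All groups overlapped. With 16 to 176 counts per library, the difference between OGD/R and normoxia was 0.65 ± 0.44 on the log2 scale (95% interval -0.26 to 1.55; edgeR adjusted p = 0.264), an interval that holds both no difference and a rise of the size seen for Ltbp1.

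Eln, the tropoelastin gene, was the only one of the 10 genes to pass the edgeR test against OGD/R in a group given DMT. It was found at 56 to 101 counts per library in normoxia, 15 to 40 in OGD/R, 4 to 24 in DMT and 8 to 22 in DMT plus BD1063. As CPM, normoxia ranged from 3.49 to 6.32 (median 4.05) and OGD/R from 0.994 to 2.50 (median 1.81), with no overlap. The mean fell from 4.51 ± 1.08 to 1.78 ± 0.52 CPM (SD, n = 6 each), a log2 fold change of -1.33 ± 0.25 (SE; edgeR adjusted p = 0.000183).

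In the DMT libraries 1 to 5 Eln was at 0.823, 0.270, 0.973, 1.51 and 1.10 CPM, and in DMT plus BD1063 it ranged from 0.483 to 1.38 (median 0.629). All 11 of these libraries lay below the OGD/R mean, although the ranges overlapped with OGD/R. Against OGD/R the log2 fold change was -1.22 ± 0.30 in DMT plus BD1063 (95% interval -1.84 to -0.60; edgeR adjusted p = 0.03) and -0.92 ± 0.31 in DMT (95% interval -1.57 to -0.27; edgeR adjusted p = 0.2, unadjusted p = 0.0074). Between the 2 groups given DMT it was -0.30 ± 0.35 (95% interval -1.02 to 0.41; edgeR adjusted p = 0.752), which did not pass. The call in DMT plus BD1063 ended when DMT plus BD1063 library 4, 5 or 6 or OGD/R library 2 or 6 was left out, with adjusted p up to 0.0734 and down to 0.00252 over all alternatives tried. On the scale log2(deposited CPM + 1), which understates changes of low genes, the difference was -0.51. Of 9 tested pericyte and smooth muscle markers 2 were called lower and 0 higher in this comparison, with a median log2 fold change of -0.09. Among all genes 3.46% were called lower and 1.86% higher. Tagln (-0.82 ± 0.16, edgeR adjusted p = 0.0105) and Acta2 (-0.86 ± 0.25, edgeR adjusted p = 0.0462) were lower on the log2 scale. Cnn1 (6.40 against 10.95 CPM), Kcnj8 (1.14 against 1.41) and Myh11 (3.69 against 3.92) had the lower mean in DMT plus BD1063 and did not pass. Pdgfrb (5.74 against 5.33 CPM), Cspg4 (2.55 against 2.11), Abcc9 (0.6252 against 0.545) and Notch3 (1.28 against 1.03) had the higher mean in DMT plus BD1063 and did not pass. The part of these markers in the Eln difference was not tested. Against normoxia Eln fell by 2.25 ± 0.29 on the log2 scale in DMT (edgeR adjusted p = 3.88e-06) and by 2.56 ± 0.28 in DMT plus BD1063 (edgeR adjusted p = 2.02e-07), with no overlap.

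Fbn1, which encodes fibrillin-1, the main strand of the microfibril, did not pass the test in any comparison. It ranged from 12.5 to 17.8 CPM in normoxia (median 14.7), from 6.49 to 16.2 in OGD/R (median 13.7) and from 7.65 to 16.6 in DMT plus BD1063 (median 12.7), and was at 10.8, 14.5, 12.1, 12.9 and 5.08 CPM in DMT libraries 1 to 5. The groups overlapped, and the log2 difference of OGD/R from normoxia was -0.19 ± 0.21 (95% interval -0.62 to 0.25; edgeR adjusted p = 0.521), and -0.057 without OGD/R library 5. For DMT against normoxia it was -0.42 ± 0.22 (edgeR adjusted p = 0.192), and -0.23 without DMT library 5. Within groups, Fbn1 moved with the fibroblast and meningeal marker sum. Over the 23 libraries, taken as deviations from their group means of log2 values, Pearson's r was 0.83 and Spearman's rho 0.781 (both p = 1e-05 in a two-sided permutation test within groups, the smallest that 100000 resamples can give; adjusted p = 0.0002 over 20 relations). Without the 2 libraries farthest from the median marker sum (DMT plus BD1063 4 and OGD/R 5) r was 0.747. Library 5 had both the lowest Fbn1 and the lowest sum of its group in normoxia, OGD/R and DMT. The permutation takes libraries as separate, so its p would be too small if equal numbers mark a shared batch, which is not known.

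Fbln2 showed the same kind of relation, with r = 0.646 (permutation adjusted p = 0.0363) and rho = 0.655 (permutation adjusted p = 0.0131), and r = 0.606 without the farthest 2 libraries. Fbln5 (r = -0.242), Fbln1 (r = -0.0115) and Eln (r = 0.214) did not pass, with permutation adjusted p of 0.627, 0.96 and 0.627. The 20 relations were those of the 10 genes with this sum and with the pericyte and smooth muscle sum. In the latter set Lox had rho = 0.719 (permutation adjusted p = 0.0023) and r = 0.569 (permutation adjusted p = 0.0861). Eln did not pass in that set, with r = -0.288 (permutation adjusted p = 0.591) and rho = -0.291 (permutation adjusted p = 0.475). Any part of the other cells in these levels was not tested.

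**Figure D2:**
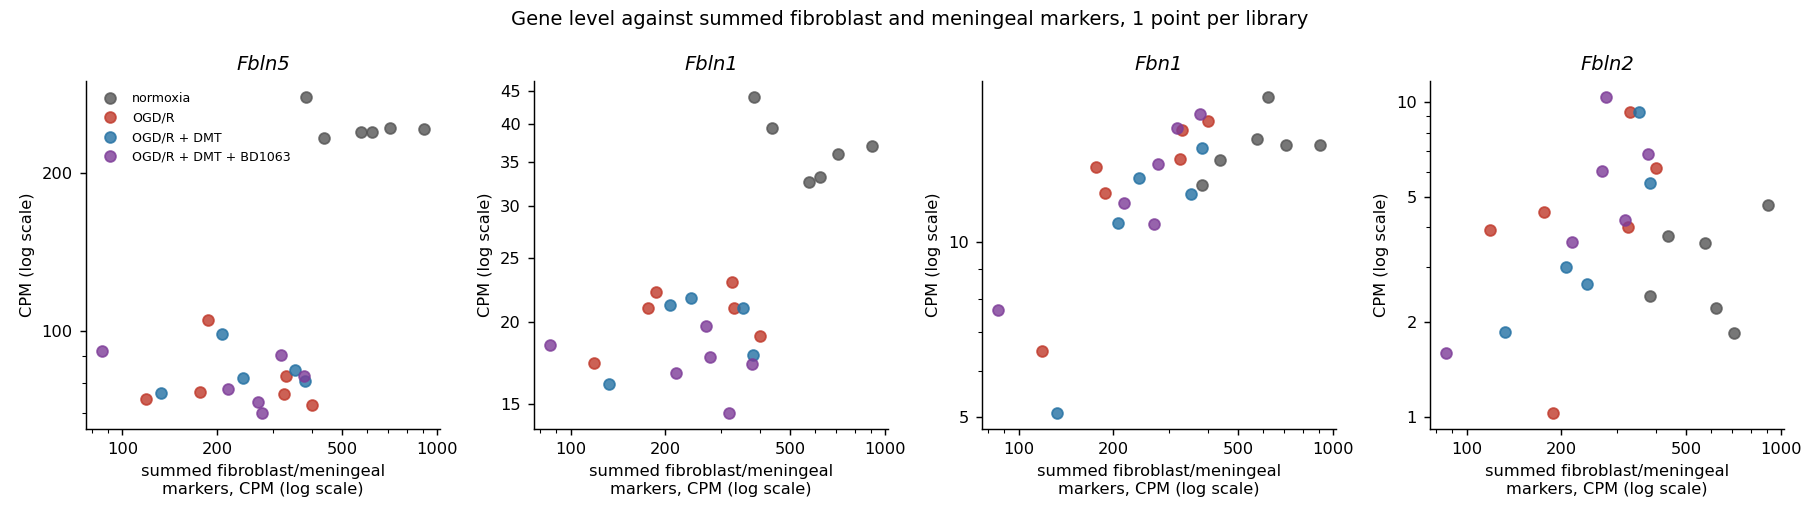
CPM of 4 genes against the summed CPM of fibroblast and meningeal markers in each library, both axes on a log scale, coloured by group. Fbn1 rises with the marker sum within groups. Fbln5 lies between 233 and 279 CPM in normoxia, where the sum is 382 to 909 CPM. In the other 3 groups Fbln5 lies between 69.9 and 105 CPM, at sums of 85.9 to 401 CPM. The part of the marker sum in the Fbln5 values was not tested.

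Emilin1, the glycoprotein at the border of elastin and microfibril, ranged from 11.3 to 15.5 CPM in normoxia (median 13.3), from 9.54 to 15.2 in OGD/R (median 12.04) and from 9.48 to 12.3 in DMT plus BD1063 (median 10.6). The DMT libraries 1 to 5 held 10.1, 11.9, 13.1, 10.9 and 13.04 CPM. All groups overlapped. The DMT plus BD1063 group was called lower than normoxia by 0.32 ± 0.11 on the log2 scale (edgeR adjusted p = 0.0356), a call that 11 of 22 alternatives ended (adjusted p up to 0.119). OGD/R against normoxia was -0.13 ± 0.11 (edgeR adjusted p = 0.373).

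The 2 genes for latent TGF-beta binding proteins changed in opposite directions under OGD/R. Ltbp1, which binds latent TGF-beta and anchors it in the matrix, ranged from 52.5 to 67.0 CPM in normoxia (median 63.0) and from 85.7 to 114 in OGD/R (median 103). Its mean rose from 62.0 ± 4.99 to 102 ± 11.5 CPM (SD, n = 6 each), a log2 fold change of 0.71 ± 0.07 (SE; edgeR adjusted p = 7.66e-08). Ltbp4, which in mice works with Fbln5 in elastic fibre assembly, ranged from 41.4 to 51.7 CPM in normoxia (median 47.5) and from 27.6 to 38.8 in OGD/R (median 32.9). Its mean fell from 47.1 ± 4.36 to 32.7 ± 4.19 CPM (SD, n = 6 each), a log2 fold change of -0.53 ± 0.08 (SE; edgeR adjusted p = 2.86e-05). Neither gene overlapped between normoxia and OGD/R. Among their relatives, Ltbp3 was also called lower in OGD/R than in normoxia (log2 fold change -0.29 ± 0.08, edgeR adjusted p = 0.00742). Ltbp2 was at -0.38 ± 0.17 and did not pass (edgeR adjusted p = 0.0889).

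With DMT, Ltbp1 was at 104, 96.9, 89.2, 98.4 and 82.0 CPM in libraries 1 to 5 and Ltbp4 at 30.7, 31.0, 29.8, 27.2 and 36.6. With BD1063 added, Ltbp1 ranged from 97.3 to 111 CPM (median 104) and Ltbp4 from 29.2 to 33.9 (median 31.9). Both genes overlapped between the 3 OGD/R groups and lay apart from normoxia in each. Against normoxia Ltbp1 was higher by 0.60 ± 0.08 on the log2 scale in DMT (edgeR adjusted p = 2.91e-06) and 0.74 ± 0.07 in DMT plus BD1063 (edgeR adjusted p = 6.2e-08). Ltbp4 fell by 0.60 ± 0.09 in DMT (edgeR adjusted p = 2.05e-05) and by 0.56 ± 0.08 in DMT plus BD1063 (edgeR adjusted p = 1.72e-05).

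Lox, the copper enzyme that crosslinks elastin and fibrillar collagen, ranged from 37.8 to 48.1 CPM in normoxia (median 42.7), from 23.7 to 51.7 in OGD/R (median 34.2) and from 27.6 to 34.9 in DMT plus BD1063 (median 29.8). The DMT libraries 1 to 5 were at 37.4, 34.9, 31.9, 41.9 and 18.1 CPM. The normoxia libraries all lay above the DMT plus BD1063 libraries and overlapped with the other groups. The log2 difference from normoxia was -0.31 ± 0.16 in OGD/R (edgeR adjusted p = 0.127), -0.39 ± 0.17 in DMT (edgeR adjusted p = 0.0932) and -0.48 ± 0.16 in DMT plus BD1063 (edgeR adjusted p = 0.0249). Only the last passed, and it missed the threshold without DMT plus BD1063 library 6 (adjusted p = 0.0545) or normoxia library 3 (0.0622) or 5 (0.0531), and with limma on the deposited CPM (0.103 and 0.107 with pseudocounts of 1 and 0.1). Without OGD/R library 4, the highest of its group, the OGD/R difference was -0.46 and passed (edgeR adjusted p = 0.0159), whereas the DMT difference was -0.49 without DMT library 4, which passed (edgeR adjusted p = 0.0443), and -0.24 without DMT library 5 (edgeR adjusted p = 0.23). The pericyte and smooth muscle marker sum was 230 ± 29.9 CPM in normoxia, 282 ± 62.3 in OGD/R, 203 ± 47.8 in DMT and 167 ± 40.1 in DMT plus BD1063. Within groups Lox was related to this sum by rank (rho = 0.719, permutation adjusted p = 0.0023). Pearson's r of 0.569 did not pass (permutation adjusted p = 0.0861). The part of this sum in the Lox differences between groups was not tested.

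Loxl2, a lysyl oxidase that acts on collagen IV of basement membranes, did not pass in any comparison. Its range was 26.8 to 40.7 CPM in normoxia (median 33.4), 22.2 to 52.1 in OGD/R (median 34.9) and 24.0 to 37.0 in DMT plus BD1063 (median 32.1). The DMT libraries were at 40.2, 35.1, 35.9, 43.4 and 12.8 CPM, so that DMT 5 lay far below the others. The log2 difference of OGD/R from normoxia was 0.12 ± 0.21 (95% interval -0.32 to 0.56; edgeR adjusted p = 0.683), and 0.22 without OGD/R library 5.

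DMT did not move any of the 10 genes past the threshold against OGD/R, and neither did adding BD1063 to DMT. In DMT against OGD/R 0 of 10 genes were called by edgeR, with 1 gene, Eln, at an unadjusted p under 0.05, where 0.325% of all genes were called higher and 0.166% lower. For DMT plus BD1063 against DMT, 0 of 10 were called, with 0 at an unadjusted p under 0.05, and 0% of all genes were called in either direction, although 1005 had an unadjusted p under 0.05. DESeq2 called 1 gene and limma voom 0 in that comparison, and neither called any of the 10 genes in these 2 comparisons. For DMT plus BD1063 against OGD/R, 1 gene, Eln, was called lower and 0 higher, where 1.86% of all genes were called higher and 3.46% lower. These 3 comparisons share libraries.

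The intervals show how large a difference these data allow. For Fbln5 the log2 difference of DMT from OGD/R was 0.06 ± 0.09 (95% interval -0.13 to 0.24), and that of DMT plus BD1063 from OGD/R was -0.0040 ± 0.09 (95% interval -0.18 to 0.17). For Ltbp4 the interval of DMT against OGD/R was -0.25 to 0.11 and for Ltbp1 -0.27 to 0.05. Fbln1 differed in DMT plus BD1063 from OGD/R by -0.24 ± 0.09 (95% interval -0.44 to -0.05; edgeR adjusted p = 0.112, unadjusted p = 0.0149), with 6 of 6 libraries below the OGD/R mean. This Fbln1 difference passed with limma voom (adjusted p = 0.0311) and without OGD/R 5 and DMT 5 (edgeR adjusted p = 0.0363).

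**Figure D3:**
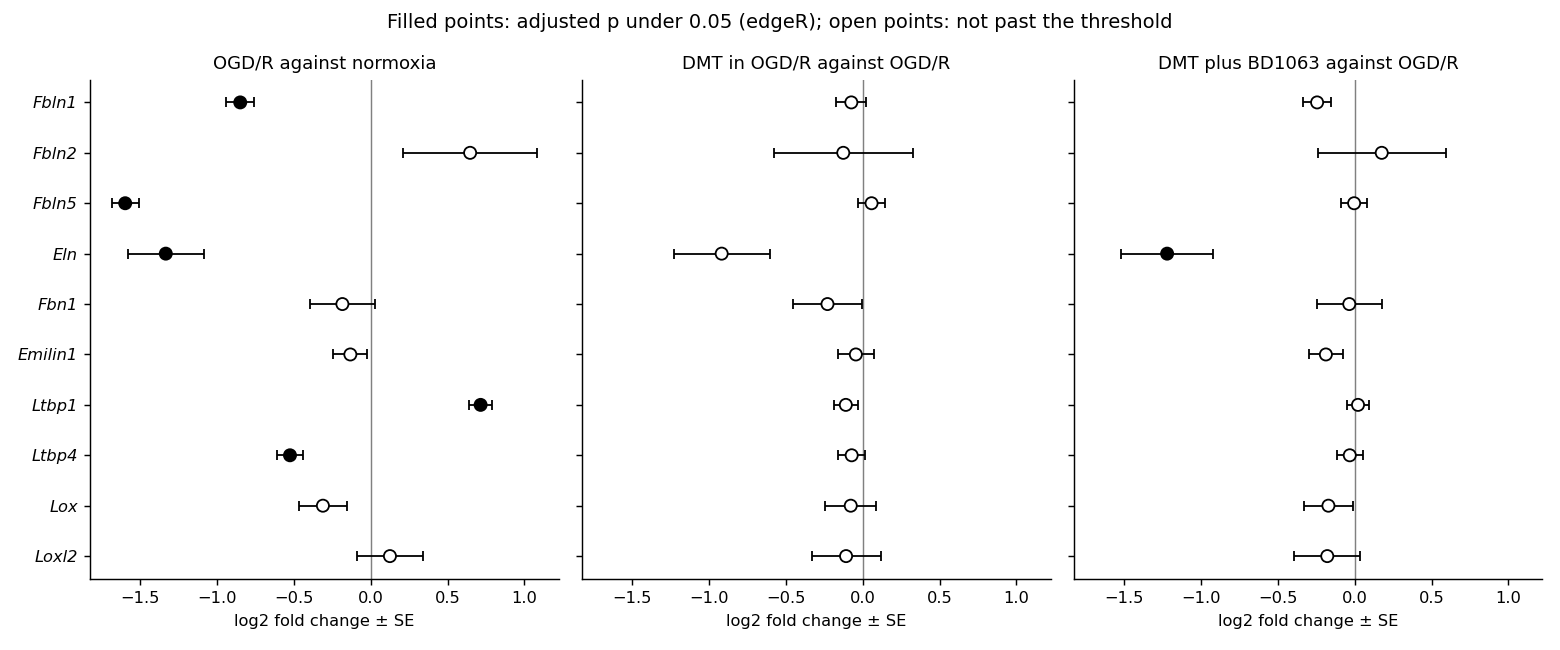
Log2 fold change with its SE for each gene in OGD/R against normoxia, DMT against OGD/R and DMT plus BD1063 against OGD/R, with filled points for an edgeR adjusted p under 0.05. In OGD/R against normoxia 5 points are filled, from -1.60 for Fbln5 to 0.71 for Ltbp1, and in the other panels the 1 filled point is Eln in DMT plus BD1063, at -1.22.

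Against normoxia, 1 of 10 genes was called higher and 4 lower in DMT, where 12.8% of all genes were called higher and 11% lower. The counts in DMT plus BD1063 were 1 higher and 6 lower, where 13.1% of all genes were called higher and 13.2% lower. Fbln5, Fbln1, Eln, Ltbp4 and Ltbp1 were called in both, and Lox and Emilin1 were called lower in DMT plus BD1063. The median log2 fold change of the 10 genes was -0.40 in each, beside 0.02 and 0.01 over all genes. The difference between the 2 groups is the comparison of DMT plus BD1063 with DMT above.

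On a wider list, named the elastic fibre list below, more genes were called lower than higher under OGD/R. It held further elastic fibre genes, relatives such as Mmrn1 and Mmrn2, and other matrix genes such as Fn1 and Vcan. Of its 28 genes, 27 were found and 19 had enough reads. Against normoxia 1 rose, 8 fell and 10 did not pass, where 18.9% of all genes were called higher and 16.7% lower. The median log2 fold change of the 19 genes was -0.38. The same 2 shares are the background for the other lists in this comparison. All lists were chosen with earlier results of these data known, so their counts are a description. Mmrn1, an EMILIN family protein of endothelial cells and platelets, fell from 28.3 to 7.38 CPM (log2 fold change -1.94 ± 0.14; edgeR adjusted p = 2.81e-10). Bgn, the proteoglycan biglycan, fell from 146 to 67.9 CPM (log2 fold change -1.10 ± 0.14; edgeR adjusted p = 2.47e-06), and Tll1, a metalloproteinase related to Bmp1, which processes procollagen and pro-Lox, fell by 1.02 ± 0.17 on the log2 scale (edgeR adjusted p = 4.29e-05). Emilin2, a relative of Emilin1, fell by 1.20 ± 0.30 on the log2 scale at a level near 1 CPM (edgeR adjusted p = 0.00319). Hmcn1, the large fibulin family member hemicentin-1, was the gene that rose, from 5.02 to 8.78 CPM (log2 fold change 0.80 ± 0.18; edgeR adjusted p = 0.00113).

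Proteases that cut elastin, their inhibitors and the lysosomal elastin receptor partners made a list of 17 genes, of which 14 were tested: 0 rose and 7 fell under OGD/R, with a median log2 fold change of -0.16. Mmp2, gelatinase A, fell from 204 to 126 CPM (log2 fold change -0.69 ± 0.06; edgeR adjusted p = 6.45e-09) and Timp3, a matrix-bound metalloproteinase inhibitor, from 168 to 86.1 CPM (log2 fold change -0.96 ± 0.14; edgeR adjusted p = 7.66e-06). Among lysosomal enzymes, Ctsd (cathepsin D) fell by 0.56 ± 0.07, Ctsk (cathepsin K, an elastinolytic protease) by 1.14 ± 0.25 and Ctsa (cathepsin A, a partner of the elastin receptor) by 0.26 ± 0.07 on the log2 scale, with edgeR adjusted p of 8.81e-07, 0.000883 and 0.00613. Both proteases and inhibitors of proteases were thus among the genes that fell.

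One gene of this list passed in DMT against OGD/R. Neu1, the sialidase of lysosomes and of the elastin receptor, was higher with DMT, at 27.6 ± 1.04 CPM (SD, n = 5) against 21.8 ± 2.33 in OGD/R (SD, n = 6), without overlap (log2 fold change 0.34 ± 0.07; edgeR adjusted p = 0.0227). In normoxia it was at 24.7 ± 1.89 and in DMT plus BD1063 at 23.6 ± 0.63 CPM. The call was lost without DMT library 2 (adjusted p = 0.0586) or 3 (0.0604) or OGD/R library 3 (0.0562) or 6 (0.0585), and with limma on the deposited CPM (0.371 and 0.359 with pseudocounts of 1 and 0.1).

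Genes that release, bind or answer to TGF-beta formed a list of 26, of which 24 were tested: 0 rose and 8 fell under OGD/R, with a median log2 fold change of -0.09. The count lay between 5 and 10 when each library was left out in turn, and was 5 without OGD/R library 2. Tgfbr3, the co-receptor betaglycan, fell from 191 to 111 CPM (log2 fold change -0.78 ± 0.11; edgeR adjusted p = 3.45e-06) and Tgfbr2, the type II receptor, from 419 to 296 CPM (log2 fold change -0.50 ± 0.16; edgeR adjusted p = 0.019). The ligand gene Tgfb3 fell by 1.13 ± 0.32 on the log2 scale (edgeR adjusted p = 0.0075), the inhibitory Smad6 by 0.32 ± 0.09 (edgeR adjusted p = 0.00724) and the matricellular target Ccn2 by 0.30 ± 0.08 (edgeR adjusted p = 0.00656).

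In DMT against OGD/R the elastic fibre, elastin turnover and TGF-beta lists held 0, 1 and 0 called genes. In DMT plus BD1063 against OGD/R and against DMT each held 0. Among all genes 0.325% were called higher and 0.166% lower in DMT against OGD/R. These shares were 1.86% and 3.46% in DMT plus BD1063 against OGD/R, and 0% each against DMT. The elastic fibre list held 1 called gene in DMT against OGD/R without DMT library 5 or OGD/R library 6, and 1 in DMT plus BD1063 against OGD/R without OGD/R library 6. With DESeq2 or limma voom this list also held 1 called gene, higher, in DMT against OGD/R. In DMT plus BD1063 against OGD/R it held 1, higher, with DESeq2 and with limma on the deposited CPM at both pseudocounts. The TGF-beta list held 1 in DMT against OGD/R without DMT library 5 or OGD/R library 4. Against normoxia 12.8% of all genes were called higher and 11% lower in DMT, and 13.1% and 13.2% in DMT plus BD1063. Of 19 tested genes of the elastic fibre list, 2 were higher and 6 lower in DMT and 2 and 10 in DMT plus BD1063. The turnover list, with 14 tested, had 0 higher and 5 lower in both. Its count in DMT was 3 without DMT library 5. The TGF-beta list, with 24 tested, had 1 higher and 2 lower in both. Its 3 calls in DMT became 5 without DMT library 1 and 1 without normoxia library 6. Of the genes of smallest p in these comparisons, Mmrn1 fell by 2.09 log2 units in each, with edgeR adjusted p of 9.54e-10 in DMT and 1.61e-10 in DMT plus BD1063. Mmp2, Ctsd and Tgfbr3 were also called lower in both. Tll1 in DMT and Bgn and Tgfb3 in DMT plus BD1063 were lower as well, with the Tgfb3 call lost without normoxia library 3 (adjusted p = 0.0595). Acvrl1, an endothelial TGF-beta family receptor, was the 1 gene of its list that rose in DMT, by 0.18 ± 0.06 on the log2 scale (edgeR adjusted p = 0.0272), and 8 of 21 alternatives ended that call. It missed the threshold with limma on the deposited CPM (0.11, adjusted p = 0.4 with both pseudocounts), with limma voom (0.10, adjusted p = 0.0652), and without DMT library 5 (adjusted p = 0.0989), normoxia library 5 (0.0645) or normoxia library 6 (0.0696).

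**Figure D4:**
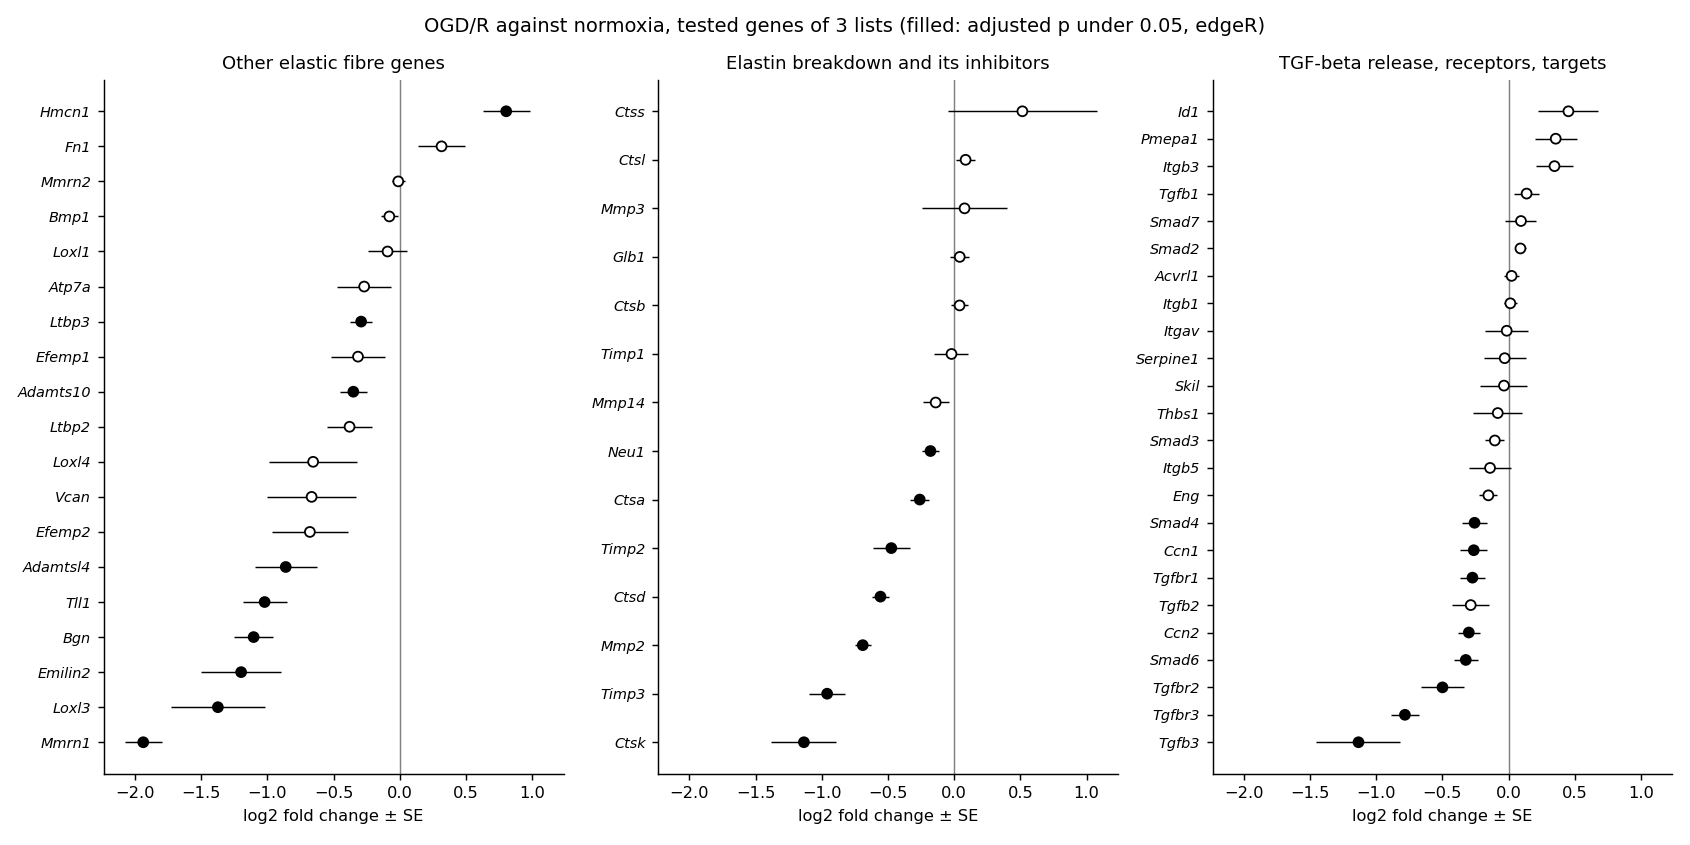
Log2 fold change with its SE in OGD/R against normoxia for the tested genes of 3 lists, with filled points for an edgeR adjusted p under 0.05. Most filled points lie left of 0, down to -1.94 for Mmrn1, and Hmcn1, at 0.80, is the 1 filled point on the right.

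The 4 group means of Fbln5 were compared with those of 9827 genes at 4 CPM or more on average. Genes without a name or with a provisional one, such as LOC names, were left out. The nearest genes were Col3a1 (fibrillar collagen), Fgl2 (a fibrinogen-like protein), Rph3al, Xdh (xanthine dehydrogenase) and Ace (angiotensin-converting enzyme). Likeness was the root mean square difference of the 4 centred group means of log2 CPM, and it lay between 0.0352 and 0.0538 for these 5 genes. Ace, for example, had means of 548 CPM in normoxia, 188 in OGD/R, 203 in DMT and 199 in DMT plus BD1063. For Fbln1 the nearest genes were Fam131a, Ramp1, Pcolce (procollagen C-endopeptidase enhancer), Flot1 and Ccdc28b, at 0.0369 to 0.0581. Since they were picked for their group means, these values are a description.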

How the data were processed

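RNA-seq of endothelial lysates from 23 culture inserts was analysed in 4 groups given by the sample titles, each table column being matched by its library name, with 0 unmatched. Per the labels' protocols, poly-A RNA was made into directional libraries and read as single reads. STAR 2.7.10a and RSEM 1.3.3 are listed in the submitters' processing notes, beside cutadapt 3.4, DESeq2 1.38, FastQC 0.11.9 and the build Rnor_6.0, without their roles, and the sources used here do not say if counting used strand. The counts table that the authors deposited holds whole numbers per gene. The second deposited table is named as TPM, but each value is the count divided by 1 number per library, so it is CPM of a read total larger than the gene counts. In each library 100% of its values came out as whole reads (tolerance 0.01 read) and equalled the counts, and edgeR called 4916 genes on them in OGD/R against normoxia, as on the counts.

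Counts were tested in R 4.3.3 with edgeR 4.0.16 (glmQLFit and glmQLFTest, robust, two-sided; TMM; filterByExpr minimum of 10 counts, which left 13834 genes) in 1 fit of 4 group means with all 23 libraries and no covariate. The threshold was an adjusted p of 0.05 (Benjamini-Hochberg) in each of 6 comparisons. Standard errors and 95% intervals came from the same fit. Alternatives were DESeq2 1.42.0 (its test and its size factors), limma 3.58.1 (voom with sample weights, and log2 of the deposited CPM plus 1 or 0.1), other count filters, a replicate block, leaving out each library, leaving out OGD/R 5 with DMT 5, and, added after seeing the data, the recovered reads. The script was tested on simulated data.

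The 10 genes and all gene lists were chosen with earlier results of these data known. All 10 genes are described in every comparison. From each of the 3 pathway lists, up to 5 called genes of smallest p are named in OGD/R against normoxia and up to 2 in each other comparison, and 5 nearest genes are named for Fbln5 and Fbln1. Ltbp2 and Ltbp3 are also given beside their relatives Ltbp1 and Ltbp4. Precision is limited by the counts, 12162759 to 18565166 per library. Promoter sequences are from RefSeq (GRCr8). The files' build differs, so no other coordinates are given.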

Additional observations from a re-analysis of the deposited data

Results flagged for a closer look

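In 4 of the 40 sets formed by 10 genes in 4 groups, 1 library lay far from the rest of its group; chance alone gives such a gap in about 1 in 20 sets. Fbln5 was at 278.7 CPM in normoxia library 5, where the next highest was 243.2. Fbln5 was at 105 CPM in OGD/R library 1, where the next was 82.1. Both libraries left the separation between normoxia and OGD/R as it was. Ltbp1 was at 52.48 CPM in normoxia library 3, below the next at 61.8. Loxl2 was at 12.76 CPM in DMT library 5, below the next at 35.1, and this library also had the highest share of ribosomal protein counts, 3.24%.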

How the results depend on the processing

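Over 21 or 22 alternatives per comparison, 0 called members changed sign. The members called in OGD/R against normoxia numbered 5 to 6 (5 as reported), in DMT against normoxia 5 to 6 (5), in DMT plus BD1063 against normoxia 5 to 7 (7), and 0 in DMT against OGD/R and in DMT plus BD1063 against DMT throughout. In DMT plus BD1063 against OGD/R, 1 as reported, the count was 2 with limma voom, 2 without OGD/R 5 and DMT 5 together, and 0 to 1 when each library was left out in turn. Eln there lay between -1.47 and -1.01, and at -0.51 on log2(deposited CPM + 1). Genes called in DMT against OGD/R numbered 68, 264 with DESeq2 and 752 with voom; in DMT plus BD1063 against OGD/R 735, 1297 and 1685; and in DMT plus BD1063 against normoxia 3636, 3937 and 5903. List counts moved most with voom: turnover genes in DMT against normoxia from 5 to 9, and TGF-beta genes from 3 to 7 in DMT and in DMT plus BD1063 against normoxia (5 in DMT with DESeq2). Without OGD/R 5 and DMT 5, turnover genes in DMT plus BD1063 against OGD/R went from 0 to 3 and TGF-beta genes against normoxia from 3 to 6.

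Whether the replicate numbers pair inserts is not known. Same-numbered libraries correlated above 0.1 in 3 of 6 pairs for OGD/R against normoxia (highest 0.415, number 5), 4 of 5 for DMT against normoxia (highest 0.449), 3 of 5 for DMT against OGD/R (highest 0.58), 1 of 6 for DMT plus BD1063 against OGD/R, and 0 for DMT plus BD1063 against DMT or normoxia. In no comparison did every pair pass, so the fit without the block was kept. Library 5 had the lowest fibroblast sum and highest ribosomal protein share of its group in normoxia, OGD/R and DMT. With the replicate block, Lox passed in OGD/R against normoxia (-0.35, adjusted p = 0.0486) and in DMT against normoxia (-0.46, adjusted p = 0.0266), Neu1 missed in DMT against OGD/R (adjusted p = 0.0609), and Acvrl1 missed in DMT against normoxia (adjusted p = 0.0542). The block turned Fbln5 in DMT plus BD1063 against OGD/R to 0.0034 and Loxl2 in DMT against normoxia to -0.0062.

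Other sign changes, all in differences that were not called, were these log2 values; the cause was not tested. In DMT plus BD1063 against OGD/R, Fbln5 was 0.0039 with DESeq2, 0.0040 with its size factors, 0.011 without a count filter, and 0.12 on both deposited CPM scales (0.116 and 0.118), where Fbn1 was 0.083 and 0.094 and Ltbp4 0.089 and 0.093. On these scales, in DMT plus BD1063 against DMT, Fbln5 was 0.046 and 0.047, Lox 0.061 and 0.067 and Loxl2 0.13 and 0.14, and Loxl2 in DMT against normoxia was -0.14 and -0.15; with a pseudocount of 0.1 the median of all genes moved to 0.11 in DMT plus BD1063 against OGD/R and 0.10 against DMT. With voom, Fbln2 was 0.26, Lox 0.049 and Loxl2 0.091 in DMT against OGD/R, Fbln2 -0.012 and Fbn1 -0.058 in DMT plus BD1063 against DMT, and Ltbp1 -0.0040 in DMT plus BD1063 against OGD/R. Without OGD/R 5 and DMT 5, Fbln2 was 0.017 in DMT against OGD/R and Ltbp1 -0.011 in DMT plus BD1063 against OGD/R.

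Leaving out 1 library at a time gave these ranges. In DMT against OGD/R: Emilin1 -0.11 to 0.028, Fbln2 -0.56 to 0.17, Fbln5 -0.0058 to 0.14, Lox -0.18 to 0.075 and Loxl2 -0.22 to 0.099. In DMT plus BD1063 against OGD/R: Fbln2 -0.12 to 0.48, Fbln5 -0.044 to 0.084, Fbn1 -0.16 to 0.074, Ltbp1 -0.011 to 0.068 and Ltbp4 -0.069 to 0.023. In DMT plus BD1063 against DMT: Fbln5 -0.10 to 0.0019, Lox -0.25 to 0.012, Loxl2 -0.28 to 0.043 and Ltbp4 -0.0050 to 0.11. For Loxl2: -0.097 to 0.22 in DMT against normoxia, -0.10 to 0.019 in DMT plus BD1063 against normoxia and -0.011 to 0.22 in OGD/R against normoxia. Of 825 alternatives for 38 other named results, 805 kept direction and side of the threshold, 20 lost the call and 0 changed sign. Counts of 4 to 24 Eln reads in DMT libraries, and unknown pairing of inserts, limit what can be resolved.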
